A study of Rattus norvegicus and Mus musculus with 12 samples.

Results

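Nuclear lamina and nuclear envelope genes were followed in cultured articular chondrocytes of newborn rats and mice, with and without the inflammatory cytokine interleukin-1β (IL-1β). The 9 genes are Lmna, Lmnb1, Lmnb2, Lbr, Tmpo, Emd, Sun1, Sun2 and Banf1, taken by gene name from the 19687 genes of the rat table and the 28603 genes of the mouse table. All 9 had 1 row in each table, and 14351 gene names were shared by both tables. They were chosen by their place in the nuclear lamina and selected on results of these same libraries, since the model against control values of both species were known when the genes were picked. Their values are therefore given as a description, with no P. Whether the fit across all genes called them is stated beside the share of all genes it called, and nothing is read from those calls.

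The study compared gene expression of rat and mouse chondrocytes under the same cytokine treatment by RNA sequencing. Cells came from cartilage of newborn Sprague Dawley rats and newborn mice and were used at passage 1. The rat control group (RC) and the mouse control group (MC) received no cytokine, and the rat model group (RM) and the mouse model group (MM) received IL-1β at 20 ng/ml for 24 h. Each group held 3 libraries. The mouse labels name strains from C57BL/6 to C57BL/9 (C57BL/6, C57BL/7 and C57BL/8 in MC, C57BL/7, C57BL/8 and C57BL/9 in MM), while the study's methods name C57BL/6, so strain is not taken as a factor here. The study describes its samples as independent but does not say whether each came from separate animals. P values here measure the spread among these samples. In edgeR the coefficient of variation between replicates was 0.0318 in mouse and 0.106 in rat, so a change of the same size has a smaller P in mouse. Whether the mouse spread is as wide as that between animals cannot be told from these data.

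The lamina is a protein meshwork under the inner nuclear membrane, built of A-type lamins (Lmna) and B-type lamins (Lmnb1, Lmnb2). Inner membrane proteins bind it to chromatin, SUN proteins reach across the envelope to the cytoskeleton, and Banf1 links DNA to LEM domain proteins when the envelope forms again after mitosis. Chondrocytes carry load, and in cells of stiff tissues A-type lamins are known to be abundant relative to B-type lamins, while lamin B1 is used as a marker of proliferating cells.

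Total counts per library ran from 21114361 to 24897458 in RC, from 20169272 to 25903459 in RM, from 16841580 to 17957308 in MC and from 17482589 to 20048322 in MM. A floor of 3 counts was equal to 0.116 to 0.178 CPM (counts scaled by library size), for counting error only, and each of the 9 genes passed the filter on low counts in both species, with at least 102 counts in each library. FPKM (fragments counted for a gene, scaled by its transcript length and by the library's total) are the authors' values and are used for levels. Log2 fold changes are model minus control, from edgeR fits to the counts with TMM scaling, each with its standard error (SE). In mouse, scaling mattered: over all genes the median log2 fold change stood at -0.02 under TMM and at -0.29 under library size alone, a shift of -0.28. The FPKM carry no TMM factors, so mouse FPKM ratios sit lower than the fitted changes, which are relative to the TMM scale. In rat the medians were 0.01 and 0.02.

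Of the 9 genes, 4 were higher and 0 lower in RM at an adjusted P under 0.05 in edgeR, beside 18.3% of all 13303 rat genes tested called higher and 16.8% called lower. At an unadjusted P under 0.05 the count lower was 1 (Lmna), and DESeq2 and limma each gave 0. In MM, 1 was higher and 8 were lower, beside 37.4% and 37.7% of all 14774 mouse genes tested. The study's methods do not give the scale of its fold change or say whether P was adjusted, though its volcano plots use a log2 axis. Its criteria were read here as a log2 fold change of 0.85 or more in either direction, P below 0.05 before adjustment, and some library at 1 FPKM or more. By that reading 1 was higher in RM, Lmnb1, beside 4.64% of all genes higher and 3.9% lower. By the same criteria Sun1 was higher and Lmnb1 and Tmpo were lower in MM, beside 12.6% of all genes higher and 13% lower. With library size alone Sun1 (0.74) no longer passed, while Lmnb2 (-0.90) and Banf1 (-1.13) did.

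FPKM of the RM libraries lay wholly above those of RC for 5 genes (Lmnb1, Lmnb2, Lbr, Tmpo and Sun2) and wholly below for 1 (Emd), beside 25.5% and 22.3% of all rat genes tested. FPKM of MM lay above MC for 1 gene (Sun1) and below for 8, beside 25.4% and 54.9% of all mouse genes tested. The study's fold threshold passed close to 2 of the genes: Lmnb1 in rat, at 0.87, was just past it, and Banf1 in mouse, at -0.85 when rounded, was just short of it.

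**Figure D1:**
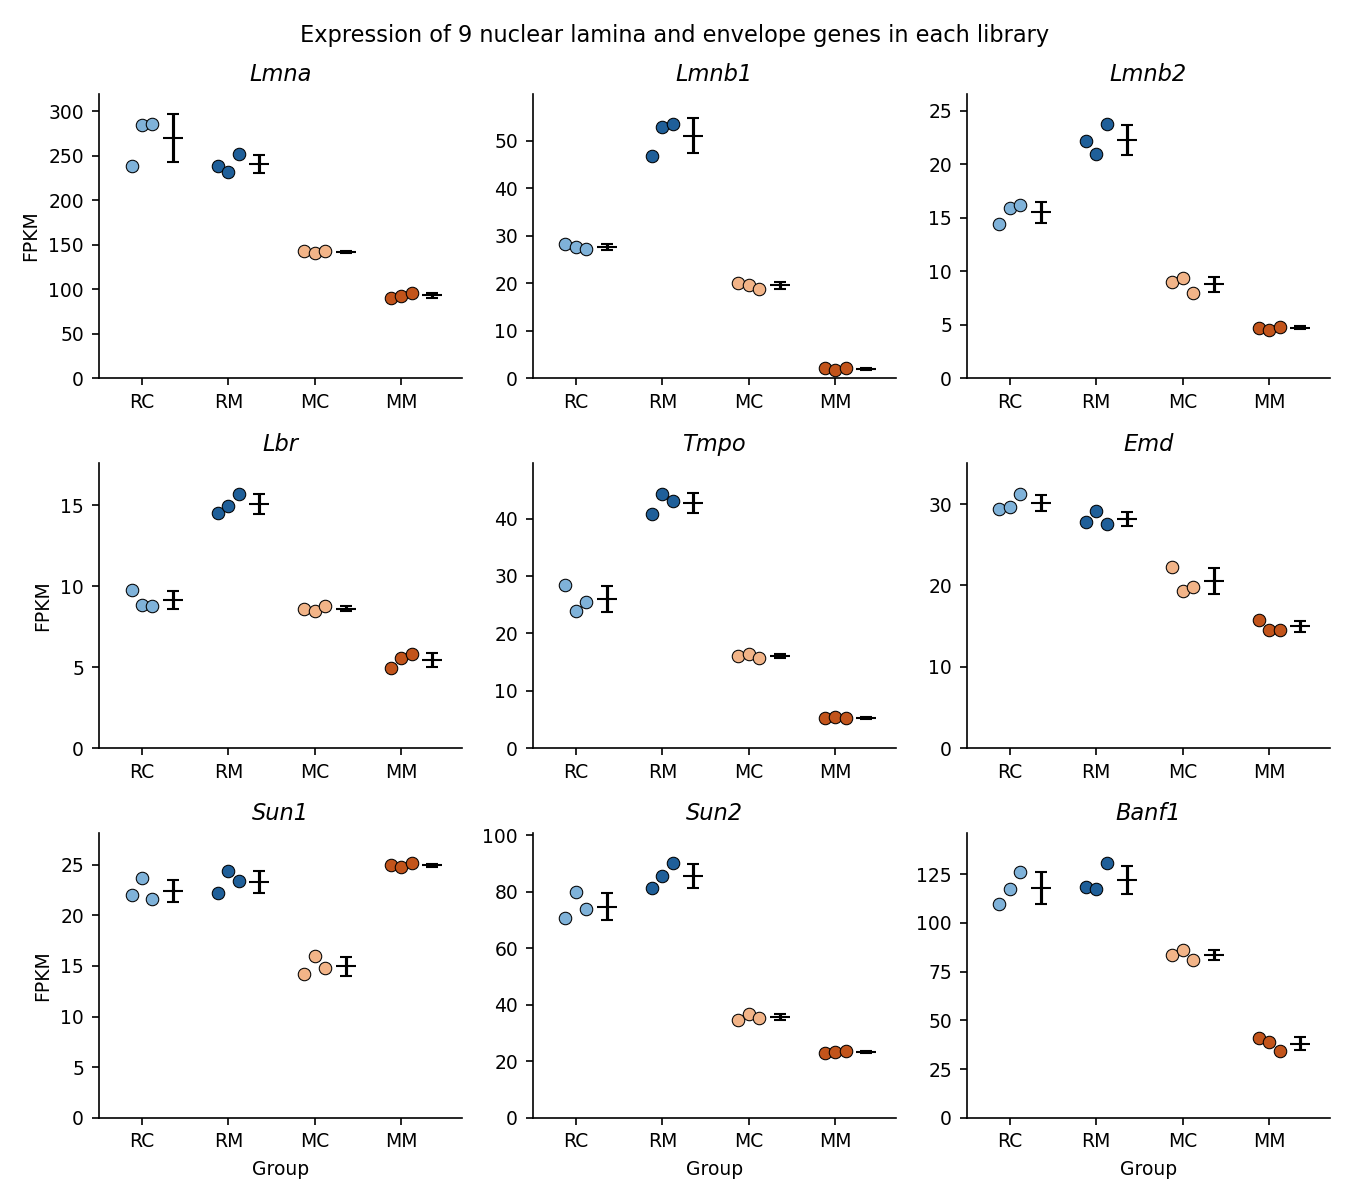
FPKM (y axis, from 0, with its own scale for each gene) of the 9 lamina and envelope genes in each of the 12 libraries, by group (RC, RM, MC, MM; 3 points each), with the mean and SD beside the points. Lmnb1 lies between 27.1 and 28.2 in RC and between 46.8 and 53.5 in RM, but between 18.8 and 20.1 in MC and between 1.76 and 2.19 in MM.

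Lmna encodes lamins A and C, the A-type lamins (rat ENSRNOG00000019638; mouse ENSMUSG00000028063, GRCm38 chromosome 3, 88480147 to 88509956, minus strand). Its FPKM were 239, 284 and 285 in RC and 239, 231 and 252 in RM. The RC1 library sat with the model libraries, so the rat groups overlapped. The means were 269 ± 26.8 in RC and 240.5 ± 10.4 in RM (SD, n = 3), and the rat log2 fold change was -0.18 (SE 0.0789), which was not called. Without RC1 it was -0.28 and was called lower. In mouse the FPKM were 143, 141 and 143 in MC and 90.5, 92.6 and 96.0 in MM. All MM libraries were below all MC libraries. The mouse log2 fold change was -0.33 (SE 0.0273), or 1.26-fold lower in MM, and -0.61 on library size alone. Lmna was at the 98.1 percentile of all tested genes by FPKM in RC and at the 98.4 percentile in MC.

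Lmnb1 encodes lamin B1, a B-type lamin that stays farnesylated and bound to the membrane (rat ENSRNOG00000013774; mouse ENSMUSG00000024590). Its FPKM were 28.2, 27.5 and 27.1 in RC and 46.8, 52.9 and 53.5 in RM. In mouse they were 20.1, 19.7 and 18.8 in MC and 2.19, 1.76 and 2.14 in MM. The model libraries were all high in rat and all low in mouse, with no overlap in either species. Means were 27.6 ± 0.534 in RC, 51.1 ± 3.72 in RM, 19.5 ± 0.676 in MC and 2.03 ± 0.235 in MM (SD, n = 3). The rat log2 fold change was 0.87 (SE 0.0771), or 1.83-fold higher. The mouse log2 fold change was -2.99 (SE 0.0822), or 7.93-fold lower. These values rested on 4112 counts over the RC group and 7724 over RM, and on 3004 over MC and 343 over MM. Without RM2 or without RM3 the rat value was 0.84, under the study's threshold of 0.85.

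Lmnb2 encodes lamin B2, the other B-type lamin (rat ENSRNOG00000025742; mouse ENSMUSG00000062075, GRCm38 chromosome 10, 80901203 to 80918245, minus strand). FPKM of Lmnb2 were 14.4, 16.0 and 16.2 in RC and 22.1, 20.96 and 23.8 in RM. In mouse, FPKM were 9.00, 9.37 and 7.98 in MC and 4.75, 4.56 and 4.84 in MM. As for Lmnb1, every RM library was above RC and every MM library below MC, with smaller gaps. The log2 fold change was 0.51 (SE 0.0831) in rat and -0.62 (SE 0.0712) in mouse, 1.42-fold higher and 1.53-fold lower.

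Because FPKM are per length, the 3 lamin genes could be set against each other within a library. The size of a share depends on the gene lengths used, which were not compared between the species, so shares are compared only within a species. Lmnb1 made up 10.03%, 8.39% and 8.26% of the summed lamin FPKM in RC and 15.2%, 17.3% and 16.3% in RM. Its share was 11.7%, 11.6% and 11.1% in MC and 2.25%, 1.78% and 2.08% in MM. The share was thus higher in each RM library than in any RC library and lower in each MM library than in any MC library. Lmna made up 86.1% ± 1.11 in RC, 76.6% ± 0.905 in RM, 83.4% ± 0.726 in MC and 93.2% ± 0.365 in MM (SD, n = 3). The Lmnb2 share was 4.97% ± 0.130 in RC and 7.10% ± 0.198 in RM, without overlap, and 5.15% ± 0.412 in MC and 4.73% ± 0.134 in MM, with overlap. Summed lamin FPKM were near each other in rat, 313 ± 27.3 in RC and 314 ± 13.1 in RM, and lower in MM (99.8 ± 2.87) than in MC (170.4 ± 1.28). The ratio of Lmna to Lmnb1 FPKM was 9.77 ± 1.14 in RC, 4.73 ± 0.366 in RM, 7.27 ± 0.278 in MC and 46.2 ± 5.75 in MM.

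**Figure D2:**
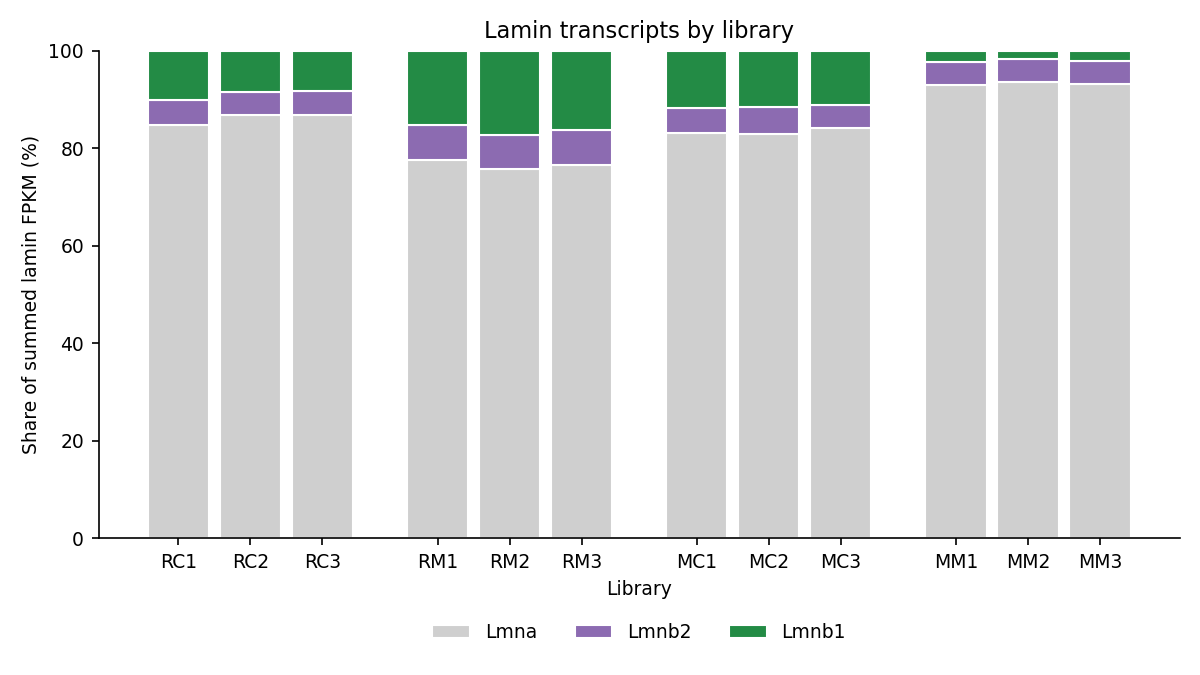
Shares of Lmna, Lmnb2 and Lmnb1 in their summed FPKM (y axis, percent, stacked from the bottom in that order) in each of the 12 libraries, 1 bar a library. The Lmnb1 share averages 8.89% in RC, 16.3% in RM, 11.5% in MC and 2.04% in MM.

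Lbr, the lamin B receptor, is an inner membrane protein that binds B-type lamins and heterochromatin and also has sterol reductase activity (rat ENSRNOG00000052574; mouse ENSMUSG00000004880, GRCm38 chromosome 1, 181815335 to 181843046, minus strand). Lbr FPKM were 9.77, 8.85 and 8.75 in RC and 14.5, 14.98 and 15.7 in RM. The mouse FPKM of Lbr were 8.58, 8.48 and 8.76 in MC and 4.93, 5.58 and 5.81 in MM. The RM libraries were high and the MM libraries low, each without overlap with its controls. The log2 fold changes were 0.71 (SE 0.0852) in rat, 1.63-fold higher, and -0.38 (SE 0.0652) in mouse, 1.31-fold lower. On library size alone the mouse value was -0.66.

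Tmpo encodes the LAP2 proteins (thymopoietins), LEM domain proteins that bind lamins and chromatin (rat ENSRNOG00000008797; mouse ENSMUSG00000019961, GRCm38 chromosome 10, 91147571 to 91181315, minus strand). Its FPKM in rat were 28.5, 23.9 and 25.4 in RC and 40.8, 44.3 and 43.1 in RM. Its FPKM in mouse were 16.1, 16.5 and 15.8 in MC and 5.16, 5.41 and 5.23 in MM. All RM libraries were above RC and all MM libraries below MC. Expression of Tmpo was higher in RM with a log2 fold change of 0.70 (SE 0.0816), or 1.63-fold, and lower in MM with -1.33 (SE 0.0407), or 2.52-fold. After Lmnb1, Tmpo had the most negative mouse value among the 9 genes.

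Emd encodes emerin, a LEM domain protein of the inner membrane that binds lamin A and Banf1 (rat ENSRNOG00000058882; mouse ENSMUSG00000001964, GRCm38 chromosome X, 74254687 to 74261548, plus strand). Emd FPKM ran from 29.5 to 31.3 in RC and from 27.5 to 29.1 in RM, on 3073 and 2915 counts. The RM libraries were below RC by a narrow margin, and the log2 fold change of -0.11 (SE 0.0727) was not called. In mouse, Emd ran from 19.3 to 22.3 in MC and from 14.6 to 15.8 in MM, on 2679 and 2153 counts. The mouse log2 fold change was -0.17 (SE 0.0584). Without MC1, the highest control library, it was -0.11 and was no longer called. On library size alone it was -0.45. For Emd the mouse change minus the rat change was -0.06 (SE 0.098). Over the alternatives run this difference ranged from -0.36 to 0.0019, so its sign was not kept.

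Sun1 encodes a SUN protein of the LINC complex, which couples the lamina to nesprins of the outer membrane (rat ENSRNOG00000001299; mouse ENSMUSG00000036817, GRCm38 chromosome 5, 139200637 to 139249840, plus strand). FPKM of Sun1 were 22.0, 23.7 and 21.6 in RC and 22.2, 24.3 and 23.3 in RM. The rat groups overlapped, and the log2 fold change was 0.04 (SE 0.0738). In mouse, Sun1 FPKM were 14.2, 16.0 and 14.8 in MC and 24.9, 24.8 and 25.1 in MM. Each MM library was above each MC library. Sun1 was the 1 gene of the 9 with a higher level in MM, with a log2 fold change of 1.01 (SE 0.0379), or 2.02-fold, and with 0.74 on library size alone.

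Sun2 encodes the second SUN protein of the same complex (rat ENSRNOG00000015177; mouse ENSMUSG00000042524, GRCm38 chromosome 15, 79724070 to 79742536, minus strand). Sun2 FPKM ran from 70.6 to 79.9 in RC and from 81.3 to 90.1 in RM, on 13172 and 15313 counts. The rat groups were close but did not overlap, and the log2 fold change of 0.18 (SE 0.0733) was not called. Without RC2, the highest control library, it was 0.22 and was called higher. In mouse, Sun2 ran from 34.6 to 36.7 in MC and from 22.8 to 23.7 in MM, on 10011 and 7195 counts. The MM libraries were below MC, with a log2 fold change of -0.33 (SE 0.0359), or 1.26-fold lower, and with -0.61 on library size alone. Sun1 and Sun2 thus went opposite ways in MM. The ratio of Sun1 to Sun2 FPKM was 0.311, 0.296 and 0.292 in RC, 0.273, 0.284 and 0.259 in RM, 0.410, 0.435 and 0.416 in MC, and 1.09, 1.06 and 1.06 in MM.

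Banf1 encodes barrier-to-autointegration factor, a small DNA-binding protein that joins chromatin to LEM domain proteins (rat ENSRNOG00000020460; mouse ENSMUSG00000024844, GRCm38 chromosome 19, 5364638 to 5367168, minus strand). Banf1 FPKM were 109.8, 118 and 126 in RC and 119, 118 and 131 in RM. The rat groups overlapped, and the log2 fold change was 0.04 (SE 0.0793). Mouse FPKM of Banf1 were 83.5, 86.2 and 80.9 in MC and 41.0, 39.0 and 34.4 in MM. All MM libraries were low, with a log2 fold change of -0.85 (SE 0.0569), or 1.80-fold lower. Without MC3 (-0.88), MM1 (-0.90) or MM2 (-0.86) it passed the threshold of 0.85 read from the study. It also passed with library size alone, at -1.13.

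**Figure D3:**
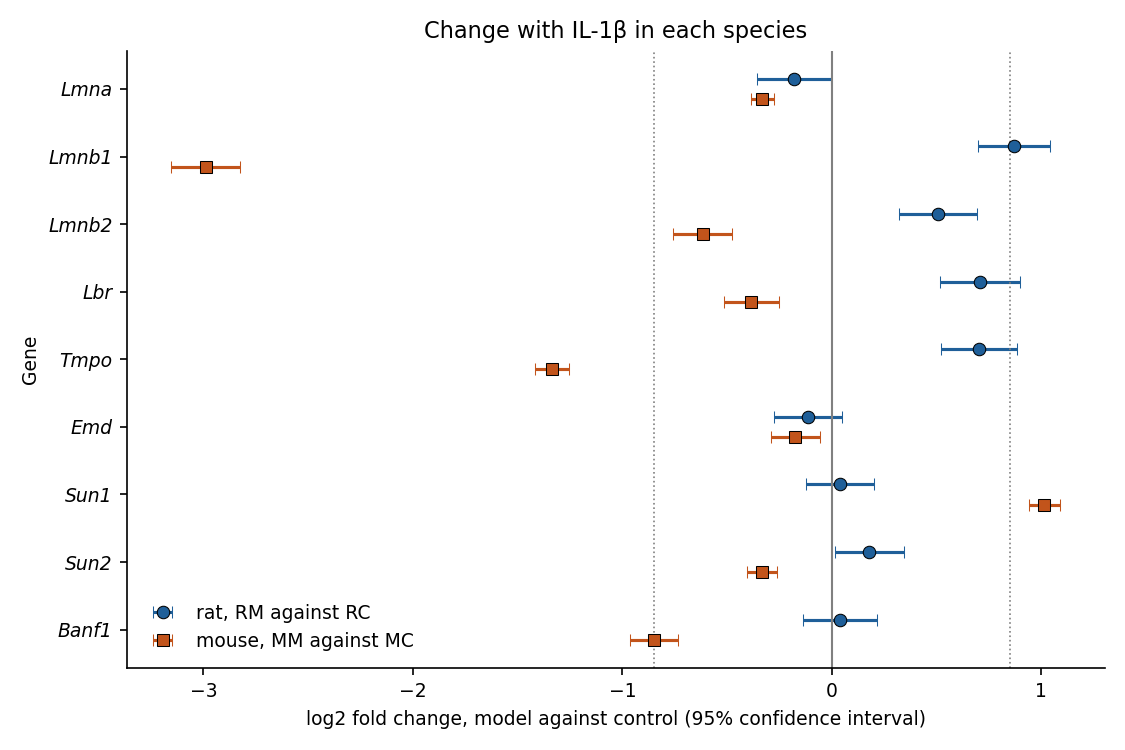
Log2 fold changes (model minus control; edgeR, TMM) of the 9 genes in rat (circles) and mouse (squares), with 95% confidence intervals of the fit as bars and dotted lines at 0.85 either way. In mouse 8 of the 9 points lie below 0 and Sun1 lies above it. In rat Lmnb1, Lmnb2, Lbr and Tmpo lie from 0.51 to 0.87 and the other genes from -0.18 to 0.18. The bars are a description, since the genes were selected on these contrasts.

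The order of the levels was compared per length within each group. In RC the mean FPKM ran from Lmna through Banf1, Sun2, Emd, Lmnb1, Tmpo, Sun1 and Lmnb2 down to Lbr, and of neighbours only Lmnb1 and Tmpo overlapped. MC had the same order, with Emd and Lmnb1, Tmpo and Sun1, and Lmnb2 and Lbr overlapping. In RM, Lmnb1 and Tmpo stood above Emd, and of neighbours Sun1 and Lmnb2 overlapped. In MM the order was Lmna, Banf1, Sun1, Sun2, Emd, Lbr, Tmpo, Lmnb2 and Lmnb1, with Lbr and Tmpo overlapping. These places also depend on the gene length that each table divides by. In mouse the FPKM of Banf1 rest on a shorter length (820 bases) than its merged exons (1496 bases), the basis of the other 8 genes. Merged exons of those 8 run from 2517 bases for Emd to 10998 for Tmpo. Lengths behind the rat FPKM were not compared with these, so the like order of RC and MC is not read as like expression. Per merged exon length Banf1 would be at 45.8 in MC, which keeps its place, and at 20.9 in MM (18.9 to 22.5), between Sun2 and Emd. Lmnb1 was thus the lowest of the 9 genes in MM but stood above 4 of the others in MC.

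The mouse change was then set against the rat change in a joint edgeR fit of all 12 libraries, as mouse minus rat log2 fold change. For Lmnb1 the difference was -3.86 (SE 0.113). Differences were -2.04 (SE 0.089) for Tmpo, -1.12 (SE 0.112) for Lmnb2, -1.09 (SE 0.109) for Lbr and -0.89 (SE 0.104) for Banf1. Nearer 0 were Sun2 at -0.51 (SE 0.079), Lmna at -0.15 (SE 0.087) and Emd at -0.06 (SE 0.098), and Sun1 was at 0.97 (SE 0.083). The lowest values over the alternatives run were -0.81 for Sun2, -0.45 for Lmna, -0.36 for Emd and 0.68 for Sun1. The median difference was -0.89 over the 9 genes and -0.03 over all shared genes, which describes the choice and tests nothing.

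**Figure D4:**
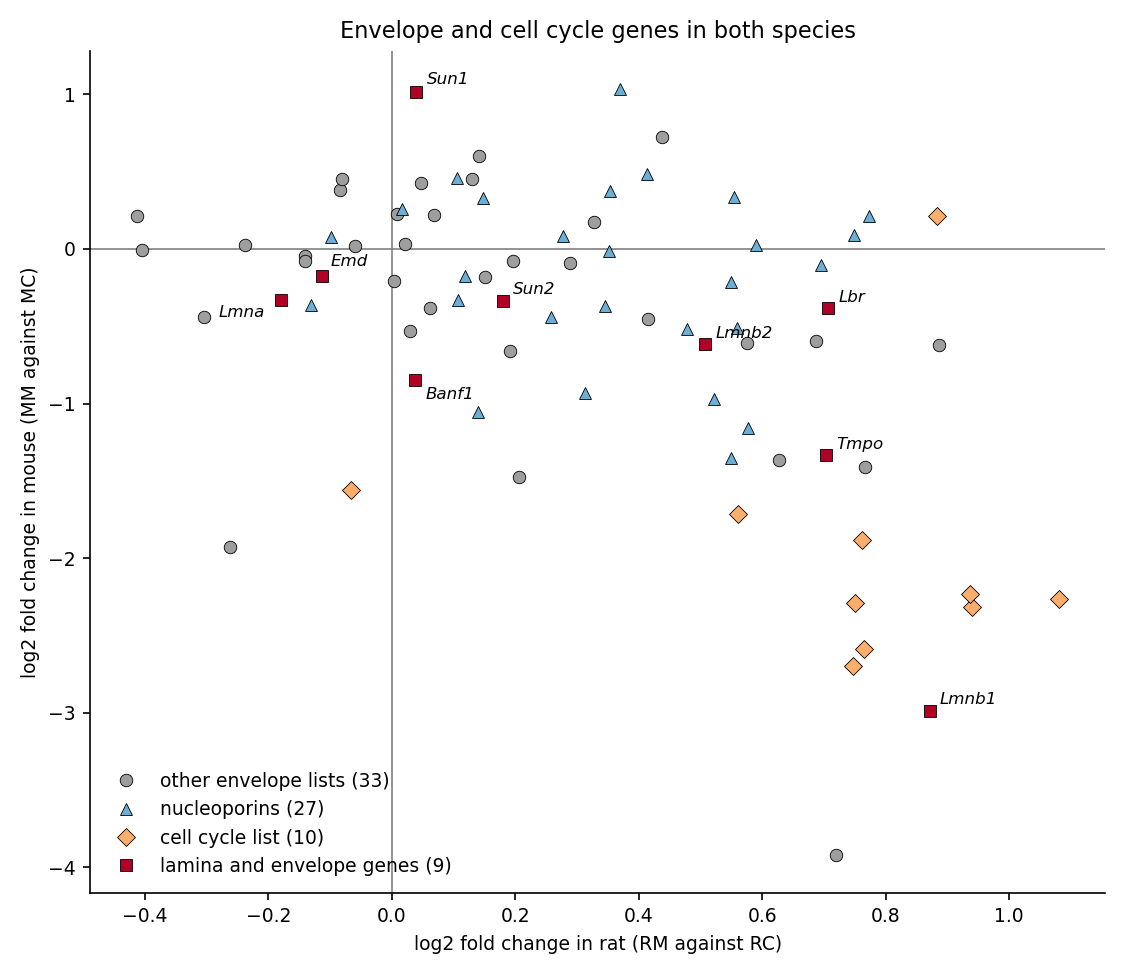
Log2 fold change in rat (x axis) against mouse (y axis) for the 9 lamina and envelope genes, nucleoporins, other envelope genes and cell cycle genes, 1 point a gene. Lmnb1, Lmnb2, Lbr and Tmpo lie at positive values in rat and negative values in mouse, as do 8 of the 10 cell cycle genes.

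Promoters of Lbr, Tmpo and Lmnb2, which were higher in RM and lower in MM, are printed to let their sequences be read side by side. Each is 300 bases, from 250 bases before to 50 after the start, from RefSeq for the rat build GRCr8, which is not the build the counts were made on. Capitals mark the letters CCAAT (the CCAAT box) and TTTGAA (the cell cycle homology region, CHR), on either strand. Lbr is at chr13:96095660-96095959 (minus strand), Tmpo at chr7:27554886-27555185 (minus strand) and Lmnb2 at chr7:9443058-9443357 (plus strand).
Lbr: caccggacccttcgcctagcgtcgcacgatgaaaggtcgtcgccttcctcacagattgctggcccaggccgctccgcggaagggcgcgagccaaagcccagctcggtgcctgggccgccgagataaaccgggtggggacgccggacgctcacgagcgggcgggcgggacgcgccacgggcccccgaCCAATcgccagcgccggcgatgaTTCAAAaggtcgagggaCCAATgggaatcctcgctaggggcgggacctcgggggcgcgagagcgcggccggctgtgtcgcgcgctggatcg
Tmpo: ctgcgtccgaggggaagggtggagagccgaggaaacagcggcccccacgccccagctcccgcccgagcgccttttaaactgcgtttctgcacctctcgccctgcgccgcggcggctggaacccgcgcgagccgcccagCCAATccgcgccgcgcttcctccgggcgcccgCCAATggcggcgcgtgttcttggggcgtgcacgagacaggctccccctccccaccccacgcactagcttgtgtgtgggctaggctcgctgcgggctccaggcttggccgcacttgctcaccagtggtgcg
Lmnb2: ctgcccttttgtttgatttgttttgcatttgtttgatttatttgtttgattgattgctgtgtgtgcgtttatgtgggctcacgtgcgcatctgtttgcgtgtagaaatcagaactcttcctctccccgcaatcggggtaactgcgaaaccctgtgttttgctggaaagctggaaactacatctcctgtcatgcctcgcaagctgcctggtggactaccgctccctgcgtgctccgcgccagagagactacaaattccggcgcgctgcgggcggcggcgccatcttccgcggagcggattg

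In the Lbr window, CCAAT began at -64 and -24 and TTTGAA at -41 from the start. The Tmpo window held CCAAT at -112 and -80, and the Lmnb2 window held neither. For Lmnb1, CCAAT was at -57 and TTTGAA at -110. Of the 9 genes' promoters, 5 held CCAAT (Banf1, Lbr, Lmnb1, Sun2 and Tmpo), compared with 37.5% of all 33469 rat promoters of this length. TTTGAA was in 4 (Banf1, Lbr, Lmnb1 and Sun2), compared with 18.3% of all. The E2F letters TTTCCCGC, TTTCGCGC, TTTGCCGC or TTTGGCGC were in 0 of the 9 and 2.1% of all, and the kappaB letters GGGNNTTTC were in 0 of the 9 and 4.5% of all. Both strands were searched, and no match overlapped another. A match is a description, not a site or a cause.

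In the mouse annotation, exons of some of the 9 genes overlap those of other genes, and without a stated strand setting the counts there are less certain. Lbr exons share 509 bases with Dnah14 and Gm26004, Banf1 exons 428 with Eif1ad and Emd exons 343 with the pseudogene Gm14686. Smaller overlaps were 302 bases for Sun1 (4930520M14Rik), 244 for Tmpo (Gm26765) and 147 for Sun2 (Gm16575), and exons of Lmna, Lmnb1 and Lmnb2 overlapped no other gene. The length implied by FPKM and counts was 820 bases for Banf1, compared with 1496 bases of merged exons, and it was equal to the merged exon length for the other 8.

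Other envelope genes were read from 6 lists with 72 genes in all. In rat 63 of these matched 1 row (Syne1, Syne2, Tor1aip2, Lemd2, Chmp4b, Nup214, Seh1l, Suv39h1 and Prr14 did not) and 62 were tested in edgeR, of which 30 rose and 3 fell at an adjusted P under 0.05, beside 18.3% and 16.8% of all rat genes. Their median log2 fold change was 0.23, and that of all rat genes was 0.01. Without RC1, 7 fell, as did 3008 of all 13431 rat genes tested in that fit. In mouse 70 were tested, 23 rose and 32 fell, beside 37.4% and 37.7% of all mouse genes, with a median of -0.08 beside -0.02 for all genes. The counts of each list that follows stand beside the same shares, and nothing is called particular to a list. Where FPKM are said to lie above or below controls in 3 of 3 libraries, 25.5% and 22.3% of all rat genes tested did so. In mouse 25.4% lay above and 54.9% below. With library size alone 11 rose and 50 fell in mouse, but that scaling lowers all mouse genes, of which 25% rose and 54.7% fell, and those shares stand beside each mouse count on library size alone. In the joint fit, 59 were tested and the mouse change was above the rat change for 11 and below it for 32, beside 31.4% and 32.3% of the 10912 shared genes tested, with a median difference of -0.30. With library size alone it was above for 2, and over the alternatives run it was below for 29 to 40. The shares of all shared genes in the joint fit were not counted with library size alone. Names within counts of 5 or fewer that fall outside the rule for named genes were chosen after their values were seen.

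The first list held nesprins, which are the partners of the SUN proteins, with torsins and membrane proteins that bind either. In rat 6 were tested. Tor1b rose by 0.33 (adjusted P 0.00536) and Tmem201 by 0.44 (adjusted P 0.00282), above RC in 3 of 3 libraries. Tmem43 fell by 0.40 (adjusted P 0.000852), below RC in 3 of 3 libraries, and Syne3 had a log2 fold change of -0.26 (adjusted P 0.0459) whose call was lost when any library but RC1 was left out, with values from -0.28 to -0.19, and also with a replicate block, library size alone or limma. In mouse 5 of 10 rose on the TMM scale (Tmem201, Tor1a, Tor1b, Tor1aip2 and Syne1) and 4 fell (Syne2, Syne3, Syne4 and Tor1aip1). Of the genes that rose, FPKM in MM lay wholly below MC for Tor1b and Tor1aip2 and overlapped for Tor1a and Syne1. Syne4 was at a low level, 0.394 FPKM in MC and 0.0819 in MM, on 60 and 14 counts. With library size alone 1 rose, Tmem201, and 8 fell, and the sign flipped for Tor1a (-0.05), Tor1b (-0.11), Tor1aip2 (-0.10) and Syne1 (-0.11). The nesprin gene Syne3 had a mouse log2 fold change of -1.93 (adjusted P 2.68e-40), from 20.0 FPKM in MC to 4.33 in MM, and Syne2 had -1.02 (adjusted P 1.1e-24). The mouse log2 fold change of Tor1aip1 was -0.53 (adjusted P 2.85e-17), all 3 genes with each MM library below MC, and that of Tmem201 was 0.72 (adjusted P 1.2e-16), above MC in 3 of 3 libraries.

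Of other inner membrane proteins, 6 were tested in rat and 3 rose, Ankle1 at 0.72 (adjusted P 0.00154), Nemp1 at 0.69 (adjusted P 0.00309) and Nrm at 0.63 (adjusted P 0.00637), each above RC in 3 of 3 libraries. In mouse the same 3 genes and Tm7sf2 fell, each below MC in 3 of 3 libraries, and Lemd2 and Lemd3 rose. The log2 fold change was -3.92 for Ankle1 (adjusted P 9.18e-25), from 4.45 to 0.248 FPKM and on only 35 counts over MM, with values from -4.60 to -3.56 when 1 library was left out (without MM3 and MM1) and -2.13 in limma with a pseudocount of 1. It was -1.48 for Tm7sf2 (adjusted P 1.85e-19), a sterol reductase related to Lbr. Lemd2, a LEM domain protein like emerin, was at 0.56 (adjusted P 9.79e-20), above MC in 3 of 3 libraries.

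Of genes listed for the processing of the lamins' CAAX ends (Fnta, Fntb, Rce1, Zmpste24, Icmt and Narf), 1 of 6 fell in rat, beside 16.8% of all rat genes. It was the farnesyltransferase subunit Fnta at -0.30 (adjusted P 0.00645), below RC in 3 of 3 libraries. In the same list 0 rose in rat in edgeR (1, Narf, at an unadjusted P under 0.05, 0 by DESeq2 and 0 by limma). In mouse Fnta was at -0.44 (adjusted P 1.48e-13) and Fntb at -0.66 (adjusted P 1.33e-08), both below MC in 3 of 3 libraries. Icmt, at 0.38 (adjusted P 1.06e-11), and Zmpste24 rose on the TMM scale, with FPKM that overlapped between MC and MM. With library size alone Zmpste24 was at -0.06 and not called, and limma called neither.

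Among genes of envelope assembly, Vrk1, the kinase that phosphorylates Banf1, rose in rat at 0.77 (adjusted P 4.35e-05), the 1 call among 9 tested, from 11.9 to 20.5 FPKM. In mouse Vrk1 fell at -1.41 (adjusted P 6.46e-19), from 4.05 to 1.26 FPKM, and its groups overlapped in neither species. The other mouse calls were Vps4b at 0.46 (adjusted P 7.05e-16), Chmp4b at 0.29 (adjusted P 1.32e-11, FPKM overlapping) and Chmp7, which rose, and Cnep1r1 and Spast, which fell. The Chmp4b call was lost with library size alone and with limma, at 0.01 in each, and with library size alone 7 of the 10 assembly genes fell.

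Nucleoporins, the proteins of the nuclear pores, showed 21 of 29 tested genes higher and 0 lower in RM by edgeR, with 14 higher without RC3 or without RM2. Nup153, which lies next to the lamina on the nuclear side of the pore, rose at 0.75 (adjusted P 5.35e-05) and Ndc1 at 0.52 (adjusted P 0.000359), above RC in 3 of 3 libraries. Nup210 rose at 1.67 (adjusted P 0.000301) from a low level, 0.129 to 0.417 FPKM. In MM 10 rose and 13 fell of 29 tested with TMM, but 4 rose and 20 fell with library size alone or limma, scales on which most mouse genes sit lower (in limma with a pseudocount of 1, 3262 of 12901 genes rose and 7103 fell). Nup50 was at 1.03 (adjusted P 2.75e-30) and Seh1l at 0.80 (adjusted P 8.45e-25), above MC in 3 of 3 libraries, whereas Nup85 was at -1.35 (adjusted P 1.02e-24) and Ndc1 at -0.97 (adjusted P 6.41e-21), below MC in 3 of 3 libraries. Among those that rose with TMM, Tpr and Nup153 had FPKM in MM wholly below MC. Nup153 was at 0.09 in mouse (adjusted P 0.0495) and at -0.19 with library size alone. That mouse call was also lost without MC2, MC3, MM1 or MM3, with values from 0.07 to 0.11, and with a replicate block, DESeq2 or no filter, at 0.09 to 0.10.

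Of genes for chromatin at the nuclear periphery, 6 were tested in rat and 3 rose, each above RC in 3 of 3 libraries. Cbx3, an HP1 protein of the kind Lbr binds, rose at 0.58 (adjusted P 0.00164) and the methyltransferase gene Suv39h2 at 0.89 (adjusted P 0.000938). Cbx5 was at 0.42 (adjusted P 0.012), a call lost without RC3 (0.39) or without RM2 (0.36). In mouse 6 of 8 fell, or 5 without MC3 or without MM1, where Suv39h2 (-0.62) lost its call at -0.40 and -0.47. Among the 6 were Cbx3 at -0.61 (adjusted P 9.73e-18) and Cbx5 at -0.46 (adjusted P 1.15e-16), both below MC in 3 of 3 libraries, and 1 rose, Hdac3 at 0.43 (adjusted P 1.4e-13), above MC in 3 of 3 libraries. The 3 other envelope genes that fell in rat were in the LINC and processing lists. By that same count, 0 of 50 rat genes of the inner membrane, assembly, nucleoporin and chromatin lists fell in edgeR, with 1 at an unadjusted P under 0.05, 0 in DESeq2 and 1 in limma. Without RC1, 3 fell, 1 each in the inner membrane, assembly and nucleoporin lists.

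Most cell cycle genes went the way of Lmnb1 and Lmnb2 in both species, unlike Lmna, which was not higher in RM. Their part in the lamin values was not tested. In RM 9 of 10 rose and 0 fell in edgeR (0 at an unadjusted P under 0.05, 0 by DESeq2, 0 by limma), with a median log2 fold change of 0.76. Mki67 FPKM were 50.9, 32.4 and 37.7 in RC and 74.8, 81.1 and 78.6 in RM. Its mouse FPKM were 28.1, 27.9 and 30.8 in MC and 5.29, 4.33 and 4.68 in MM. As for Lmnb1, all RM libraries were high and all MM libraries low. Mki67 was at 0.94 in rat (adjusted P 0.000399) and -2.32 in mouse (adjusted P 1.78e-49), and Top2a was at 1.08 (adjusted P 0.000105) and -2.26 (adjusted P 1.45e-48). The replication genes Mcm2, at 0.56 in rat (adjusted P 0.000287) and -1.72 in mouse (adjusted P 4.7e-33), and Mcm5, at 0.94 (adjusted P 1.18e-05) and -2.24 (adjusted P 1.95e-35), moved likewise. In MM 9 of 10 fell, with a median of -2.25. Pcna rose in rat at 0.88 (adjusted P 2.8e-05), while its mouse value was 0.21 (adjusted P 5.08e-06) on the TMM scale and -0.07 with library size alone. Ccnd1 was not called in rat, at -0.07 (adjusted P 0.479), and fell in mouse at -1.56 (adjusted P 1.56e-46). Cdk1 and Ccnb1 rose in rat at 0.75 (adjusted P 2.47e-05) and 0.76 (adjusted P 1.74e-05), above RC in 3 of 3 libraries. The mouse change was below the rat change for 10 of 10 cell cycle genes in the joint fit, with a median difference of -3.11.

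Of 5 CDK inhibitor genes, 1 rose and 2 fell in rat, and 2 rose and 3 fell in mouse. Cdkn1a was not called in rat, at 0.03 (adjusted P 0.858), and rose in mouse at 2.59 (adjusted P 3.81e-62), from 56.1 to 279 FPKM. Cdkn2b fell in rat at -0.99 (adjusted P 1.19e-05) and rose in mouse at 0.54 (adjusted P 1.56e-15), without overlap in either species. Cdkn2a fell in both, at -0.64 in rat (adjusted P 0.00481) and -0.69 in mouse, and Cdkn1b fell in mouse. Cdkn2c was at -1.19 in mouse (adjusted P 7.63e-29) and at 0.44 in rat (adjusted P 0.02), a rat call lost without RC3 (0.34) or without RM1 (0.46), RM2 (0.44) or RM3 (0.42).

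The genes most like Lmnb1 and Lmna were found by Pearson r of log2 CPM, centred within species, over 12 libraries and among 3534 genes. The libraries form 4 groups, so r mostly reflects group means, and no shared function is implied. Most like Lmnb1 were Mcm6 (r 0.998), Sfrp2 (0.996), Kif20a (0.995), Rpa1 (0.994) and Plk1 (0.994). On the log2 scale Mcm6 was at 0.85 in rat and -2.55 in mouse, and Sfrp2 at 1.69 and -5.17. Most like Lmna were Sdhc (r 0.980), Ptov1 (0.978), Sh3gl1 (0.977), Eef1g (0.9751) and Ndn (0.971). On the same scale Ptov1 was at -0.41 in rat and -0.87 in mouse, and Sdhc at -0.22 and -0.43.

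The labelled cell type was checked by its markers. All 8 chondrocyte markers were at 1 FPKM or more in each of the 12 libraries, with Col2a1 the most abundant. Their summed FPKM were 4059, 4725 and 4117 in RC, 1435, 1491 and 1482 in RM, 2112, 2078 and 2123 in MC, and 173, 177 and 186 in MM. In edgeR 8 of 8 fell in each species, with a median log2 fold change of -1.38 (rat) or -3.14 (mouse), and 0 rose (0 at an unadjusted P under 0.05 and 0 by DESeq2 and limma in both). In bulk RNA, fewer cells of a type and less RNA per cell cannot be told apart, for these markers and for the lamina genes alike.

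Fibroblast markers, 7 in all, with Col1a1 the most abundant in RC, RM and MC and Dcn in MM, summed to 3661, 4195 and 3727 FPKM in RC, 2335, 2364 and 2455 in RM, 2283, 2287 and 2311 in MC, and 1508, 1513 and 1499 in MM. Of these 7, 2 rose and 2 fell in rat, and 4 rose and 3 fell in mouse, where Col3a1 and Pdgfra rose on the TMM scale and stood at -0.12 and -0.02 with library size alone. Log2 fold changes in mouse were 4.99 for Dcn, 3.81 for Twist2, -1.48 for Col1a1, -1.56 for Thy1 and -3.06 for Dpt. In rat they were 2.27 for Dcn, 3.05 for Twist2, -0.90 for Col1a1 and -0.98 for Col3a1. Macrophage and leukocyte markers, led by Cd68 in MC and by Cd14 in the other groups, summed to 19.5, 22.6 and 20.0 FPKM in RC, 34.2, 31.2 and 32.8 in RM, 7.57, 7.38 and 7.33 in MC, and 34.4, 37.0 and 35.0 in MM. The defining leukocyte marker Ptprc was near 0, at means of 0.0559 FPKM in RC, 0.0453 in RM, 0.00322 in MC and 0.00104 in MM, and Itgam was at 0 counts in all 6 mouse libraries. Of the 4 tested, 2 rose and 2 fell in rat and 4 rose in mouse, where the Csf1r call was lost with library size alone (0.42), its FPKM overlapped, and 3 rose without MC2. Endothelial markers summed to 0.0279 to 0.116 FPKM in rat and 0.133 to 0.640 in mouse. In edgeR 0 were tested in rat and 1 in mouse, Vwf, which rose. Vwf was at 0.411 FPKM or less in each mouse library, under the minimum of 1 FPKM kept for limma, so limma did not test it. Muscle markers, led by Des, summed to 4.41, 5.01 and 4.96 in RC, 4.01, 3.62 and 2.99 in RM, 3.19, 2.83 and 3.12 in MC, and 0.169, 0.417 and 0.339 in MM, and Des fell in mouse. The part of these cell types in the lamina values was not tested.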

How the data were processed

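RNA from 12 chondrocyte libraries was sequenced, 3 each in RC, RM, MC and MM. Per the labels, the authors aligned reads with HISAT2 to Rnor_6.0 or GRCm38 and counted them with HTSeq 0.11.2. The deposited tables give a raw count per gene and library, and FPKM as the authors computed them. Total counts ran from 16841580 to 25903459. Counts of each species were filtered with filterByExpr (minimum count 10), scaled by TMM and fitted with the quasi-likelihood method of edgeR 4.0.16 in R 4.3.3, with P adjusted over all genes of the fit. A joint fit of genes shared by name gave mouse minus rat differences. Steps were tested on simulated data. The 9 genes and all gene lists were chosen with earlier results of these data known, so no P is given for the 9 genes. From each envelope, cell cycle and CDK inhibitor list the 3 genes with the smallest adjusted P under 0.05 in each species were named. Mki67, Mcm2, Mcm5, Pcna and Ccnd1 were also named, with the 5 genes most like Lmnb1 or Lmna by Pearson r (mean FPKM of at least 10 in each species). The rule was not applied to the cell type markers. Alternatives were library size alone, RLE size factors, no filter, DESeq2 1.42.0, limma 3.58.1 on log2 FPKM with a pseudocount of 1 or 0.1, a log2 threshold of 1, a replicate block and leaving out each library. Mouse positions are from GENCODE (GRCm38) and rat promoters from RefSeq (GRCr8). In 3 against 3 libraries an exact permutation test cannot go below 0.1 and was not run. Rat symbols with more than 1 row were left out.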

Additional observations from a re-analysis of the deposited data

Results flagged for a closer look

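For 5 lamina genes FPKM lay on opposite sides in the 2 species, with every RM library above RC and every MM library below MC. Of all genes tested, 25.5% lay wholly above RC in rat and 54.9% wholly below MC in mouse. The share of shared genes that did both was not counted, so nothing is read from this count. For Sun2 the rat gap was narrow and its rat change was not called. The mouse minus rat difference of log2 fold changes was -3.86 for Lmnb1, -2.04 for Tmpo, -1.12 for Lmnb2, -1.09 for Lbr and -0.51 for Sun2. These genes were selected on the contrasts that enter the difference, so it is a description and the difference was not tested.

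The shares of Lmna and Lmnb1 and the SUN ratio also went opposite ways in all libraries, while the Lmnb2 share overlapped between MC and MM. The share of Lmna in the summed lamin FPKM changed by -9.51 percentage points from RC to RM and by 9.86 from MC to MM. The share of Lmnb1 changed by 7.38 percentage points in rat and by -9.43 in mouse. The ratio of Sun1 to Sun2 FPKM changed by -0.0278 in rat and by 0.651 in mouse. These differences between the species were not tested.

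Among the other named genes, the difference itself was tested in the joint edgeR fit, and 31 of 34 passed an adjusted P of 0.05, the largest of these being 0.0311. Most of these genes were named for a small adjusted P in the rat or mouse contrasts that enter the difference, and 31.4% of all 10912 shared genes passed above and 32.3% below, so nothing is read from the count. Mouse minus rat differences for nesprins and membrane proteins were -1.67 for Syne3, -0.56 for Tor1aip1, 0.40 for Tmem43, 0.29 for Tmem201, -4.64 for Ankle1, -2.00 for Nrm, -1.28 for Nemp1 and -1.68 for Tm7sf2. The difference of Tmem201 was no longer past the threshold without RC2, RM1, RM2, MC1 or MM3, with values from 0.22 to 0.28. With library size alone the differences of Tmem43 (0.10), Icmt (0.17), Vps4b (0.03) and Hdac3 (0.09) were no longer past it either, and that of Tmem201 was -0.0072. Differences not past the threshold were -0.16 for Tor1b, -0.13 for Fnta and -0.04 for Cdkn2a. With library size alone those of Tor1b (-0.45) and Fnta (-0.43) passed it, and that of Tor1b also did without RC2 (-0.19).

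For enzymes and assembly genes the differences were -0.85 for Fntb, 0.47 for Icmt, -2.17 for Vrk1 and 0.32 for Vps4b. For nucleoporins they were 0.67 for Nup50, -1.90 for Nup85, -0.66 for Nup153 and -1.496 for Ndc1. For chromatin genes they were -1.19 for Cbx3, -0.87 for Cbx5, 0.38 for Hdac3 and -1.504 for Suv39h2.

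For cell cycle genes the differences were -3.26 for Mki67, -3.34 for Top2a, -2.28 for Mcm2, -3.17 for Mcm5, -0.67 for Pcna, -1.49 for Ccnd1, -3.04 for Cdk1 and -2.64 for Ccnb1. For CDK inhibitors they were 2.57 for Cdkn1a, 1.53 for Cdkn2b and -1.62 for Cdkn2c.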

How the results depend on the processing

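The 9 genes kept the sign of their mouse log2 fold change under every alternative run, as did Lmnb1, Lmnb2, Lbr and Tmpo in rat. Leaving out 1 library at a time, 0 to 1 of the 9 were lower in rat, 0 to 1 were higher by the study's criteria (0 also at a log2 threshold of 1), and 2 to 7 other envelope genes were lower in rat. Of all rat genes tested, from 1568 of 13491 (without RM2) to 3008 of 13431 (without RC1) were lower in those fits. With library size alone in mouse, 0 of the 9 were higher and 4 lower by the study's criteria. At that scaling 11 other envelope genes were higher and 50 lower, and 2 had a mouse change above the rat change. Shares of all genes by the study's criteria, or in the joint fit, were not counted at that scaling. With limma on log2 FPKM in mouse, 0 of the 9 were higher by the study's criteria with a pseudocount of 1 or 0.1, and 4 of the 9 were lower with 0.1. Shares of all genes by those criteria were not counted for limma, at a log2 threshold of 1 or with 1 library left out. By limma 10 and 9 other envelope genes were higher in mouse, beside 3262 and 3253 of all 12901 genes tested. Library size and FPKM carry no TMM factors, which lowers mouse values. Among the genes named by the rule, signs reversed in mouse, with library size and with limma at 1 and 0.1, for Tor1b (-0.11, -0.10 and -0.11), Nup153 (-0.19, -0.17 and -0.18) and Pcna (-0.066, -0.064 and -0.065). The Tmem201 difference between species was -0.0072 with library size. Other listed genes, outside that rule, also changed sign in mouse with library size. Library numbers did not pair across groups (same-number correlations from -0.098 to 0.085). With a replicate block 4 of the 9 were higher and 0 lower in rat, beside 2436 and 2098 of all 13303 genes tested. In mouse 1 was higher and 8 lower with that block, beside 5503 and 5544 of all 14774 genes tested. Counts between mouse replicates varied by 1.90 to 2.49 times sampling noise and between rat replicates by 6.07 to 27.8 times.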
